A study of Mus musculus with 24 samples.

Results

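The nuclear-encoded subunits of the respiratory chain were described in the distal jejunum of wild type mice and of mice lacking protein tyrosine kinase 6 (Ptk6-/-). Members were the protein coding genes whose symbols begin with Nduf followed by a, b, c, s or v and a number, with Uqcr, with Atp5 or with Cox4 to Cox8, together with Cyc1. A minimum of 10 counts, to be reached by 3 or more of the 24 libraries, was also set. All 81 genes that match by name passed it, out of 21694 genes in the series that did. By name, 38 belong to complex I, 9 to complex III, 17 to complex IV and 17 to complex V. A further 14 genes that match by name are not protein coding and were left out, whereas Cox5b-ps is annotated as protein coding and was kept despite its pseudogene name. RNA was sequenced from 24 mice, 1 library each, in 8 groups of 3: males and females, wild type or Ptk6-/-, that drank regular water (control) or water with 100 mM succinate for 7 days. The Ptk6 knockout was carried in the germline, so it was present in every cell type. The mice were adults of the C57BL/6 background, matched for age and taken from different litters of 1 colony. RNA came from whole tissue, in which fewer cells of a type and less RNA per cell cannot be told apart.

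The respiratory chain passes electrons from NADH and succinate to oxygen and uses the energy to pump protons across the inner mitochondrial membrane. Complex I oxidises NADH, complex III passes electrons from ubiquinol to cytochrome c, complex IV passes them to oxygen, and complex V, the ATP synthase, lets protons flow back to make ATP. Complex II, which oxidises succinate itself, is not among the members. Some subunits are encoded by mitochondrial DNA, and the others are encoded in the nucleus, translated in the cytosol and imported. Absorptive enterocytes, the main cells of the jejunal epithelium, draw on this chain for the ATP that drives nutrient transport.

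Promoter sequences of the members are described first. RefSeq windows from 250 bases before to 50 bases after the transcription start (assembly GRCm38.p6) were found for 65 of the 81 members, and 5 of these had more than 1 window. Letters bound by 3 known kinds of regulator were searched on both strands. The letters GCGCATGCGC of nuclear respiratory factor 1 (NRF1) were in the windows of 5 of the 65 members (7.69%) and of 257 of the 17492 protein coding genes in the table (1.47%). The letters CCGGAAG, read by ETS factors such as GABP, were in 15 members (23.1%) and in 12.9% of the genes. The letters ATGGCGG of YY1 were in 10 members (15.4%) and in 6.05% of the genes. A match describes these letters only and shows no binding. The 17492 genes were not limited to those expressed in the jejunum. The part of these letters in the members' levels was not tested. The 250 bases upstream of the start are printed on the gene's strand, 5′ to 3′, with matching letters of either strand in capitals. Cox6a1 (minus strand, chr5:115348959-115349208) had the highest mean level of the members, and Atp5k (minus strand, chr5:108434400-108434649) and Atp5j (minus strand, chr16:84834977-84835226) hold other combinations of the letters. Ndufs8 (minus strand, chr19:3912775-3913024) had the smallest p in the male controls, and Atp5b (plus strand, chr10:128083057-128083306) varied least among the mice.
Cox6a1: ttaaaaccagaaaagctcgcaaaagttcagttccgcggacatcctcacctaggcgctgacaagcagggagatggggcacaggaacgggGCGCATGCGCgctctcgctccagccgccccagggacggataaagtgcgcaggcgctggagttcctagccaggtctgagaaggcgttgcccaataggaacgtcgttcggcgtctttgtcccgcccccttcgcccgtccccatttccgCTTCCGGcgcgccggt
Atp5k: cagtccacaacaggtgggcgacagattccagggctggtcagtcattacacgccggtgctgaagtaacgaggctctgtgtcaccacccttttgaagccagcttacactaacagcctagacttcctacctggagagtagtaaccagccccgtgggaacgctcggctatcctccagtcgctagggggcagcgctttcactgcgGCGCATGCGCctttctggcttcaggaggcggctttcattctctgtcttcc
Atp5j: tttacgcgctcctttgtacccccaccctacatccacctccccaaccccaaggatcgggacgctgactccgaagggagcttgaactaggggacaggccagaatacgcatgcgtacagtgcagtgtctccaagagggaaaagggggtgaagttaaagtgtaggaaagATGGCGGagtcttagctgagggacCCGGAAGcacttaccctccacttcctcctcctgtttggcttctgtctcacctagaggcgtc
Ndufs8: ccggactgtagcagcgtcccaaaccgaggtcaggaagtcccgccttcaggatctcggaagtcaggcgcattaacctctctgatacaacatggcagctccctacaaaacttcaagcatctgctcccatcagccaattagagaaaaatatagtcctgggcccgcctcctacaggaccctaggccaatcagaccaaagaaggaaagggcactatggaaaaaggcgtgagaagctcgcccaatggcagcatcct
Atp5b: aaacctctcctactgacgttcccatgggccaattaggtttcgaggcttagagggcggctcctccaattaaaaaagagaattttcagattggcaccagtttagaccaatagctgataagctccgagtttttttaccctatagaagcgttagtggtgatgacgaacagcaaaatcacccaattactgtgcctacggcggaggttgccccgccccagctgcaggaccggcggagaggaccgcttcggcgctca
In the Cox6a1 window the NRF1 letters begin 162 bases and the ETS letters 16 bases before the start. In that of Atp5k the NRF1 letters begin 50 bases before it, and in that of Atp5j the YY1 and ETS letters begin 85 and 61 bases before it. The upstream windows of Ndufs8 and Atp5b hold none of the 3.

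Total counts per library lay between 8080321 and 52824743. Levels are given as CPM, counts scaled to library size by TMM. Ptk6 itself had 9.21 to 48.8 CPM in the 12 wild type mice and 0.305 to 1.92 in the 12 Ptk6-/- mice. Enterocyte markers were present in every library, at 17757 to 56144 CPM summed over 10 genes. Several libraries stood apart. In female wild type succinate replicate 2 the sum of 12 heart muscle markers was 23826 CPM, against 17.4 to 252 in the other 23 libraries, and the 13 subunits encoded by mitochondrial DNA summed to 144939 CPM. In female Ptk6-/- control replicate 3 those 13 summed to 101678 CPM, and in the other libraries to at most 46310. Male Ptk6-/- succinate replicate 1 had the lowest total count, with 29.7% of its counts on the ribosomal RNA gene Rn18s-rs5, a share of 51.2% in male wild type control replicate 1 and of at most 4.49% elsewhere. Lung markers (Scgb1a1 and 4 surfactant protein genes) summed to 6.07 to 16.9 CPM in the 6 female Ptk6-/- libraries and to 14.6 CPM in female wild type succinate replicate 3, against at most 0.717 CPM in the other 17.

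Levels of different genes were compared by FPKM, the authors' unit scaled by gene length and by depth, as means over the 24 mice. Complex IV held both ends of the range. Cox6a1, the form of subunit 6a found outside muscle, had the highest mean (660 ± 399 FPKM, SD, n = 24), followed within the complex by Cox4i1 (350 FPKM), Cox8a (325) and Cox6b1 (238). Cox4i2, an alternative form of subunit 4, had the lowest mean over all 24 (1.11 ± 0.818 FPKM). Without female wild type succinate replicate 2, the library with heart markers, Cox6a2 (0.236 ± 0.226 FPKM, SD, n = 23) and Cox8b (0.311 ± 0.329), the muscle forms of subunits 6a and 8, were below Cox4i2 (1.01 ± 0.688). In complex V the catalytic head subunits Atp5a1 (310 ± 102 FPKM) and Atp5b (297 ± 85.3) were highest and Atp5l (15.4 ± 8.18), a small membrane subunit, was lowest. The range was narrow in complex III, from Uqcr10 (135 ± 84.5 FPKM) to the core protein Uqcrc2 (60.7 ± 19.7). The Nduf genes, placed in complex I by name only, ran from Ndufb10 (96.5 ± 50.9 FPKM), in the membrane arm, to Ndufa4l2 (1.46 ± 1.59), a paralogue of Ndufa4. Ndufb2 was the next lowest (3.12 ± 2.05 FPKM). Of the complex I subunits that hold the flavin or iron-sulfur clusters, Ndufs8 had 52.6 ± 26.9 FPKM, Ndufv1 37.0 ± 15.3 and Ndufs1 8.25 ± 3.45. The SDs are between mice, and most members rose and fell together, so they do not measure the difference between genes within a mouse. Neighbours such as Cox4i1 and Cox8a, or Atp5a1 and Atp5b, were not compared by a test.

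Most members were high or low together in individual mice, also within a group. Their summed level ran 3.97-fold, from 7456 CPM in male Ptk6-/- control replicate 1 to 29620 CPM in female wild type succinate replicate 2. In the male controls it was 11603, 11877 and 12609 CPM in wild type and 7456, 9273 and 9819 CPM in Ptk6-/- mice. In the female controls it was 14083, 20140 and 15480 CPM in wild type and 8042, 7624 and 19228 CPM in Ptk6-/- mice. The genotypes did not overlap in the male controls and overlapped in the females. After succinate the sum was 8382, 21654 and 20034 CPM in wild type males and 23750, 10499 and 12455 CPM in Ptk6-/- males. It was 25474, 29620 and 11051 CPM in succinate-treated wild type females and 13747, 23067 and 11762 CPM in Ptk6-/- females. The genotypes overlapped in both sexes after succinate, and treated and control mice overlapped in all but the Ptk6-/- males.

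**Figure D1:**
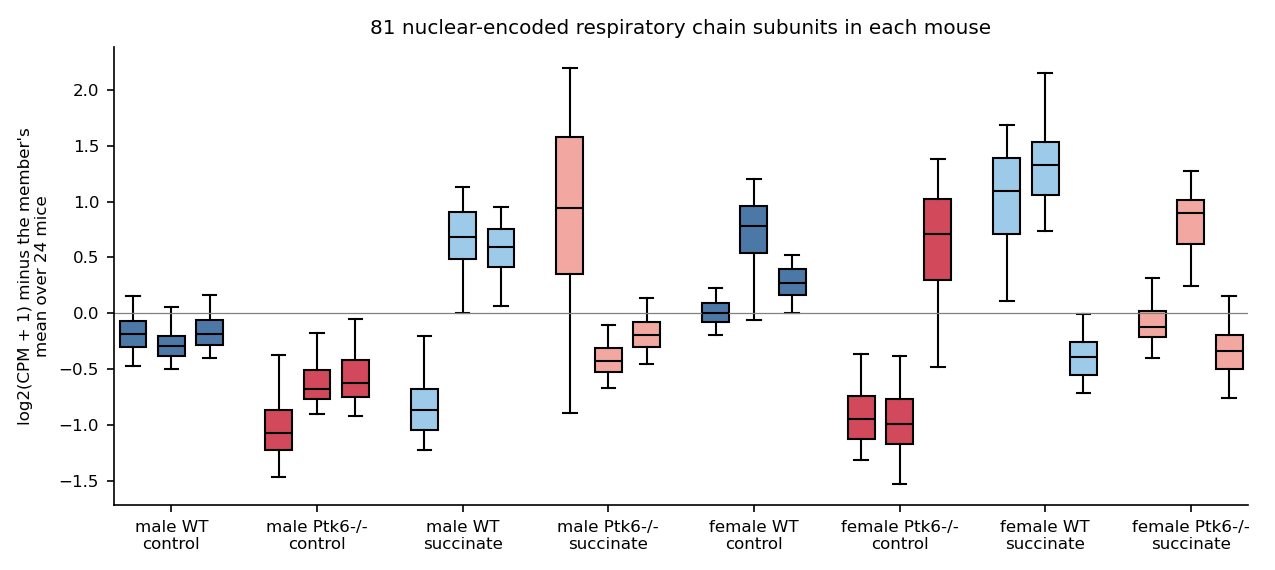
Deviation of the 81 members from their own means over 24 mice (log2 scale, vertical axis), with the 3 mice of each of 8 groups along the horizontal axis. Boxes are quartiles over the members with the median as a line. Medians run from -1.07 in male Ptk6-/- control replicate 1 to 1.33 in female wild type succinate replicate 2, and single mice stand apart from the others of their group.

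In several groups a single mouse held the extreme value for nearly all members. Female Ptk6-/- control replicate 3 was the highest of its 3 mice for 78 of the 81 members, and female Ptk6-/- succinate replicate 2 for all 81. Female wild type succinate replicate 3 was the lowest of its group for all 81, male wild type succinate replicate 1 for 80, and male Ptk6-/- control replicate 1 for 75. Over the 24 mice, 70 of the 81 members had a correlation above 0.8 with the median of the other members (median correlation 0.96). The values share libraries and scaling, so the correlations are a description.

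The members that followed the others least were Uqcrc2 (correlation 0.085), Ndufs1 (0.11), the largest iron-sulfur subunit of complex I, and Atp5a1 (0.13). The muscle forms Cox8b (0.41) and Cox6a2 (0.42), which are near 0 in most libraries, came next, followed by Atp5b (0.43) and Atp5pb (0.59), of the peripheral stalk of the ATP synthase. Atp5b had the smallest spread of all members (SD 0.31 on the log2 scale over 24 mice), ahead of Atp5c1 (0.34), the gamma subunit of the central stalk, and Atp5a1 (0.40), its partner in the catalytic head. Atp5e, the epsilon subunit, which also belongs to the central stalk, had one of the widest (1.35) and ranged from 15.1 to 565 CPM. Its highest value was in male Ptk6-/- succinate replicate 1, from 2061 counts, and the next highest was 247 CPM. In that library Atp5b, Uqcrc2, Ndufs1 and Atp5pb had their lowest levels of the 24 (954, 61.7, 35.7 and 168 CPM).

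The members' level in a mouse moved with the balance of counts between short and long genes in its library. That balance was taken as the slope of each library's log2 CPM deviations on log2 gene length over all genes, positive where long genes hold relatively more. The slope ran from -0.17 in male Ptk6-/- succinate replicate 1 to 0.13 in male Ptk6-/- control replicate 1. The members' median deviation ran against it, with Pearson r = -0.87 and Spearman rho = -0.91 over 24 mice as a description with no test. Pearson r was -0.93 in the 12 controls and -0.82 in the 12 succinate-treated mice, and -0.85 without the 2 mice farthest from the median slope. Members tend to be short, with 53 of 81 among the 4769 shortest of the genes tested in the male controls. The deviation also moved with the summed level of cytosolic ribosomal protein genes (r = 0.94), whereas r was 0.098 with that of the subunits encoded by mitochondrial DNA. Without female wild type succinate replicate 2 and female Ptk6-/- control replicate 3, where the latter were highest, r with them was -0.57 over 22 mice. The part of gene length in the members' levels was not tested beyond the fits that remove a length trend, given below for the comparisons.

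**Figure D2:**
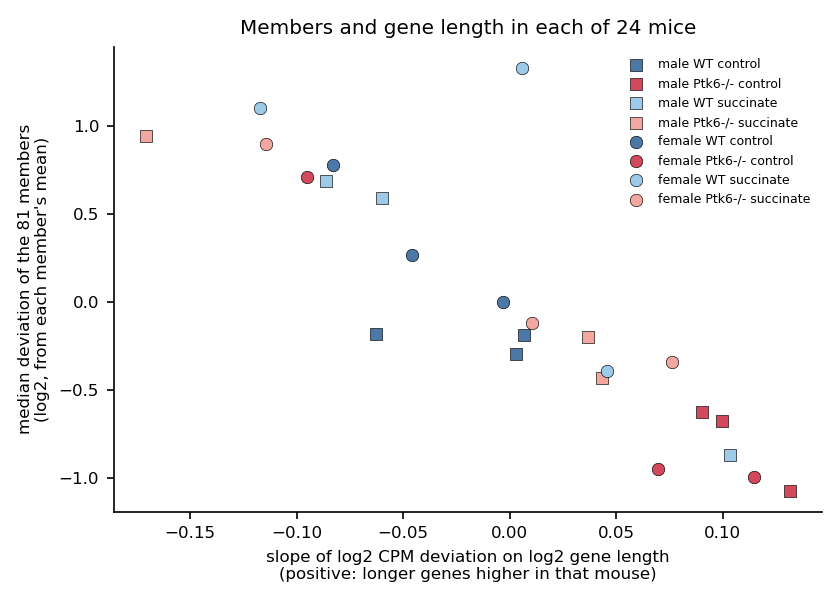
Median log2 deviation of the 81 members (vertical axis) against each library's slope of log2 CPM deviation on log2 gene length (horizontal axis), 1 point per mouse. The points descend from upper left to lower right (r = -0.87, n = 24), and female wild type succinate replicate 2 lies above the rest at 1.33.

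The first comparison asked how the loss of Ptk6 altered the members in untreated males. Levels were lower in Ptk6-/- males for 78 of the 81 members (48.7% of all genes were lower), with a median log2 fold change of -0.61, against 0.02 over the 19218 genes tested. By edgeR's quasi-likelihood test 17 members fell at an adjusted p under 0.05 (background 1.87% of genes lower) and none rose. None of the 17 reached the 2-fold change that the study's threshold also asks for, so 0 of the 81 passed it (background 0.739%). By edgeR 68 members had an unadjusted p under 0.05 (background 12.5% lower), and DESeq2 called none of the 81 at 2-fold (background 1.62%) but 60 at an adjusted p under 0.05 (background 15.7%). The groups did not overlap for 68 members, all lower in Ptk6-/- mice (background 14.9%).

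The 17 came from complex I (9 of 38), complex IV (2 of 17) and complex V (6 of 17), and none of the 9 of complex III passed. Ndufs8, a core subunit that carries iron-sulfur clusters, had 84.6, 74.1 and 75.9 CPM in wild type and 44.9, 47.4 and 52.0 CPM in Ptk6-/- males, so that every knockout lay below every wild type mouse. It fell by 0.72 on the log2 scale (SE 0.12, adjusted p = 0.031 by edgeR). Ndufb2, in the membrane arm, had 14.8, 16.8 and 17.6 CPM against 8.86, 10.6 and 10.3 CPM and fell by 0.74 (SE 0.14, adjusted p = 0.035, edgeR). The other 7 of complex I were accessory subunits: Ndufb5, Ndufb6, Ndufb9, Ndufb11, Ndufa9, Ndufa13 and Ndufc2, with log2 fold changes from -0.76 to -0.58. Within complex IV, Cox7a2l, known for its part in joining complexes III and IV into supercomplexes, had 133, 132 and 127 CPM in wild type and 81.5, 92.8 and 90.4 CPM in Ptk6-/- males. It fell by 0.59 (SE 0.11, adjusted p = 0.0364, edgeR), and Cox7a2, the widely expressed form of subunit 7a, fell by 0.70. The groups of neither overlapped. In complex V, Atp5mpl, a small membrane subunit, had 39.4, 35.5 and 42.7 CPM against 17.7, 26.1 and 23 CPM and fell by 0.84 (SE 0.16, adjusted p = 0.0373, edgeR). Atp5h, of the peripheral stalk, had 172, 165 and 159 CPM against 77.1, 105 and 111 CPM and fell by 0.78 (SE 0.16, adjusted p = 0.0387, edgeR). Atp5j, Atp5j2, Atp5e and Atp5o also fell, by 0.65 to 0.83. The changes of the 17 thus lay close together, between -0.84 and -0.58. Of these genes, Ndufb2, Ndufb5, Ndufb11 and Atp5j overlap a gene on the other strand (Braf, Mrpl47, Rbm10 and Gabpa) that has 15.9% to 55.4% of their counts, and whether the counting separated the strands is not given in the sources used here.

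**Figure D3:**
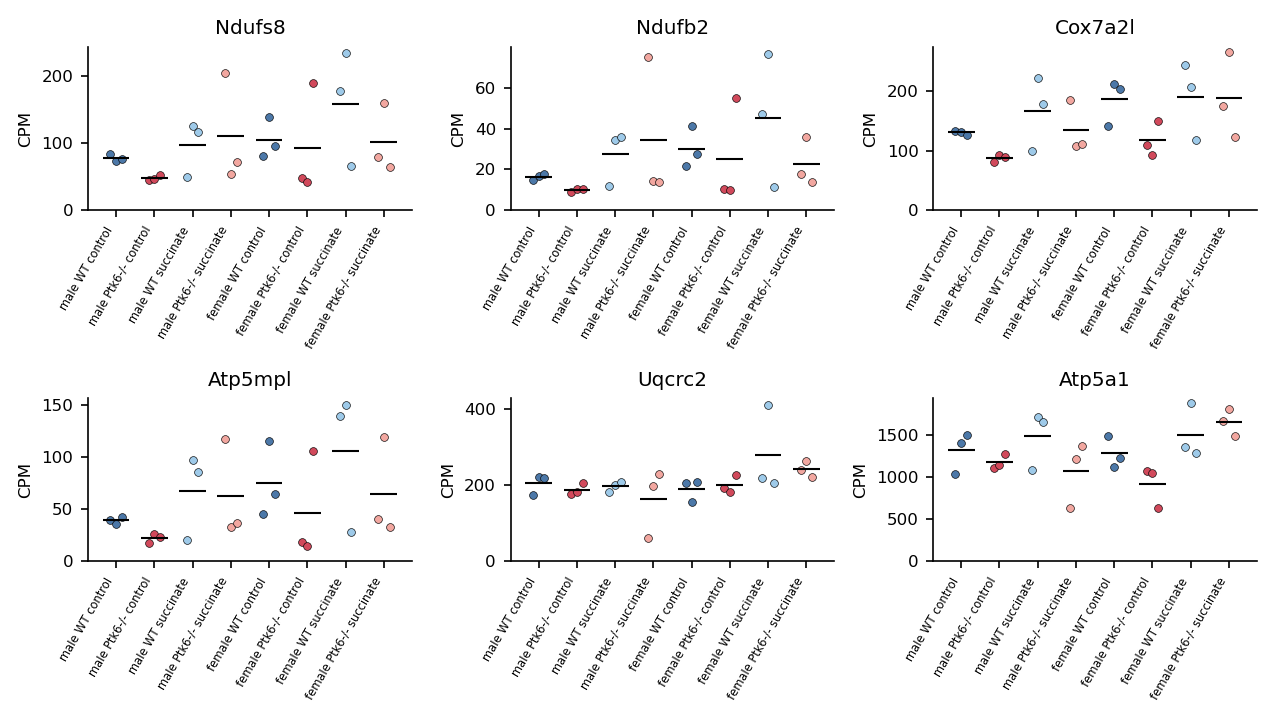
Levels (TMM CPM, vertical axis) of 6 members in the 24 mice, 1 point per mouse with a line at each group's mean, by group along the horizontal axis. For Ndufs8 the 3 male Ptk6-/- controls (44.9 to 52.0) lie below the 3 male wild type controls (74.1 to 84.6), while a single female Ptk6-/- control lies far above the other 2.

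Other core subunits of complex I did not pass. The log2 fold changes were -0.71 for Ndufs7 (edgeR adjusted p = 0.0532), -0.54 for Ndufv2, -0.44 for Ndufs3, -0.37 for Ndufv1 and 0.04 for Ndufs1. Ndufs1 had 61.2, 84.5 and 95 CPM in wild type and 81.6, 75.9 and 91.6 CPM in Ptk6-/- males, and the groups overlapped. The other members with a log2 fold change not below 0 were Cox8b (0.85), which had under 1 CPM in all 6 mice, and Ndufa4l2 (0.00). By complex the median was -0.61 in complex I, -0.42 in III, -0.59 in IV and -0.63 in V. These calls depended on single mice and on the fit. Scaling by DESeq2 size factors in edgeR gave 17 members (background 4.34%), and no count filter gave 15 (background 2.74%). Without male wild type control replicate 1, the library with 51.2% of its counts on Rn18s-rs5, 9 members passed (background 4.78%). Without male Ptk6-/- control replicate 1, 12 passed (background 4.82%), and without any 1 of the other 4 none did. With the length trend removed, 1 member passed (Ndufb2, background 0.817%) and the median was -0.25. No member passed, also at an unadjusted p under 0.05, by limma on log2(FPKM + 1) (background 1.75% at an adjusted p under 0.05), where the median was -0.17 with all genes at 0.25, or by edgeR with all 24 libraries in 1 fit (background 0.0052%), where it was -0.64. In FPKM the members summed to 2436 in male wild type control replicate 1, against 5302 and 5545 in the other wild type controls, although their CPM sums were close. The part of that library in the FPKM fit was not tested. The 4769 shortest genes had a median of -0.36 and the 4769 longest 0.25 in the same comparison, and the 41 shorter and 40 longer members had medians of -0.62 and -0.59.

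The other genes of oxidative phosphorylation in these males were read from lists. None of the 4 subunits of complex II passed (median -0.21), nor did any of 43 assembly factors (-0.27) or of 12 regulators of mitochondrial biogenesis (0.14). Of the 13 subunits encoded by mitochondrial DNA, 9 were higher in Ptk6-/- males, 2 of them past the threshold (median 0.21, background 2.36% of all genes higher). Of 102 cytosolic ribosomal protein genes 68 fell (median -0.87), and of 78 mitochondrial ribosomal protein genes 11 fell (median -0.45), where 1.87% of all genes fell. The ribosomal sum was 25840 to 29977 CPM in the wild type and 14360 to 16412 CPM in the Ptk6-/- males, so it moved with the members. Enterocyte markers summed to 30883, 31675 and 32621 CPM in wild type and 21339, 31418 and 33012 CPM in Ptk6-/- males, and the 10 genes were divided, with Apoa1, Fabp2 and Cdx2 lower and Sis, Lct and Slc5a1 higher in every knockout than in any wild type mouse. Apoa1 had 11372, 10070 and 10306 CPM against 4335, 7948 and 7219 CPM. Of the 4 goblet cell markers, Tff3 and Spink4 were lower and Muc2 higher without overlap. The 4 Paneth cell markers all had a lower mean in Ptk6-/- males, with Defa24 and Ang4 not overlapping, and summed to 10403, 12282 and 11599 CPM against 11299, 3739 and 4490 CPM. Skeletal muscle markers had a lower mean in 7 of 7 genes, with only Mylpf not overlapping. They summed to 30.8, 31.3 and 38.3 CPM in wild type and 13.5, 25.1 and 29.4 CPM in Ptk6-/- males. The part of these genes in the members' difference was not tested.

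**Figure D4:**
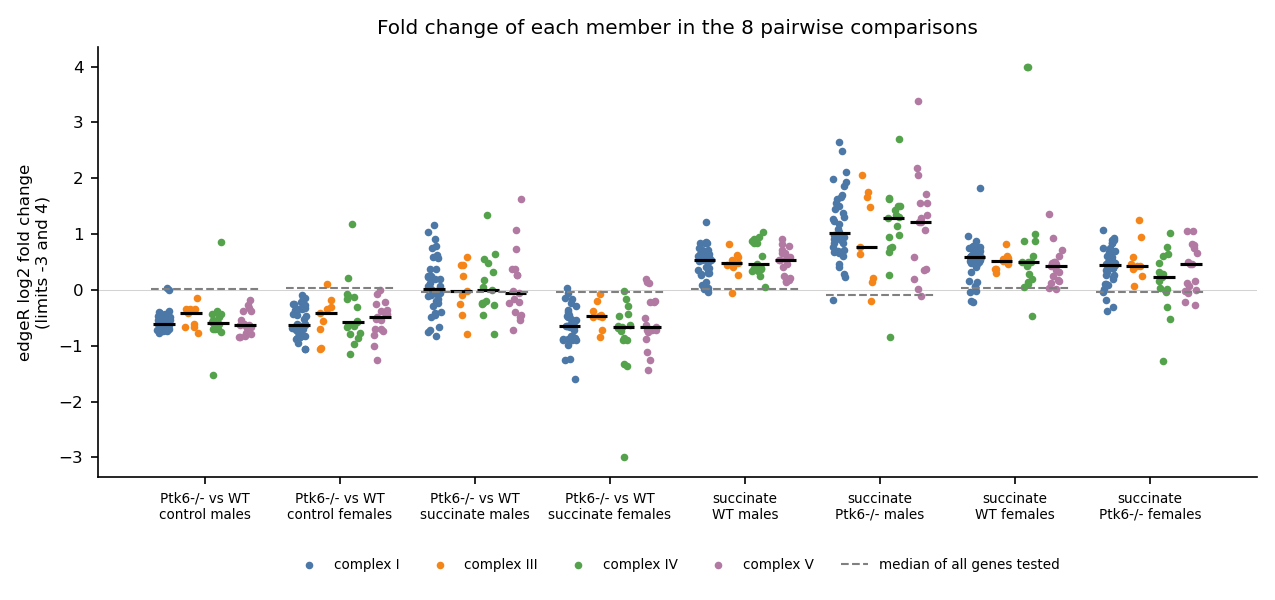
Log2 fold change of each member (vertical axis, drawn between -3 and 4) in the 8 pairwise comparisons (horizontal axis), by complex, with 1 point per member. In the control males 78 of 81 points lie below 0, and in the Ptk6-/- males 77 of 81 lie above 0 after succinate.

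The same question in untreated females gave a similar median, with no call by edgeR and few by DESeq2. Levels were lower in Ptk6-/- females for 78 of the 81 members (47% of all genes were lower), with a median of -0.55 against 0.04 over 19035 genes. No member passed at an adjusted p under 0.05 by edgeR (background 0.0158%), while 9 had an unadjusted p under 0.05, all lower (background 5.03%), and DESeq2 called 3 at an adjusted p under 0.05 (background 2.12%), 1 of them past 2-fold (background 1.38%). The groups did not overlap for 11 members (background 10.3% lower). The smallest p belonged to Uqcrfs1, the Rieske iron-sulfur protein of complex III, with 157, 208 and 164 CPM in wild type and 79.2, 74.5 and 96.5 CPM in Ptk6-/- females. Its log2 fold change was -1.05 (SE 0.23, edgeR adjusted p = 0.367), although the groups were apart. Ndufv1, which binds NADH in complex I, had 144, 178 and 129 CPM against 84.5, 74.2 and 91.6 CPM (-0.82, SE 0.23). Both were among the calls of DESeq2. Uqcrh, the hinge protein of complex III, and Atp5pb followed with -1.06 and -0.70. Higher values, none near the threshold, were fitted for Cox8a (0.21), Uqcrc2 (0.11) and Cox6a2, which had under 1 CPM in these mice.

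The outcome in females turned on a single mouse. Ndufs8 had 81, 139 and 95.9 CPM in wild type females and 47.5, 42.8 and 190 CPM in Ptk6-/- females, and Cox6a1 had 521, 1103 and 656 CPM against 247, 233 and 1532 CPM. The third knockout was thus above every wild type female, and the other 2 below. Without this mouse, replicate 3, the median was -1.39 and 67 members passed (background 15%), 60 of them past 2-fold (background 9.65%). Leaving out any 1 of the other 5 called none. The mouse was also the highest of the 6 in subunits encoded by mitochondrial DNA, with 101678 CPM against 21431 to 46310 CPM, and all 13 were higher in Ptk6-/- females (median 1.63), or 10 of 13 without this mouse (median 0.88). Enterocyte markers summed to 46224, 50568 and 52706 CPM in wild type and 22032, 28616 and 56144 CPM in Ptk6-/- females. The sum was carried by Apoa1, an apolipoprotein gene, with 17633, 22292 and 19793 CPM against 5145, 6224 and 26065 CPM. Of the 10 markers 5 were highest of the 3 knockouts in replicate 3, Slc5a1 and Cdx2 were lowest there, and only Cdx2 did not overlap between the genotypes. Cytosolic ribosomal protein genes summed to 29313, 51161 and 38134 CPM against 17413, 14519 and 46318 CPM, and smooth muscle markers to 3775, 4354 and 3404 CPM against 2201, 2836 and 4854 CPM, both with replicate 3 the highest knockout. The lung markers ran with genotype, at 0, 0.324 and 0.331 CPM in wild type and 10.4, 10.8 and 16.9 CPM in Ptk6-/- females. Immune markers had a higher mean in Ptk6-/- females in 6 of 6 genes. They summed to 68.3, 73.2 and 47.4 CPM in wild type and 82.7, 112 and 97.4 CPM in Ptk6-/- females. Heart muscle markers had a lower mean in 10 of 12 genes, with Myh6, Tnnt2 and Myl2 not overlapping. Their sums overlapped, at 44.2, 76.1 and 43.5 CPM in wild type and 18.4, 31.3 and 44.3 CPM in Ptk6-/- females. Skeletal muscle markers had a lower mean in 5 of 7, with Ckm and Tnnt3 not overlapping, although Tnnt3 had at most 0.285 CPM in these mice. Their sums also overlapped, at 33.8, 43.3 and 29.2 CPM in wild type and 18.9, 18.7 and 30.9 CPM in Ptk6-/- females. Of the 4 goblet cell markers 2 had a lower and 2 a higher mean, and only Muc2, which was higher, did not overlap. The part of these in the members' difference was not tested. The difference of the genotype effect between the sexes, taken as male minus female, passed for none of the 81 members (edgeR, background 0%). Its median was -0.07, 1 member (Uqcrfs1, 0.70) had an unadjusted p under 0.05 (background 4.64%), and DESeq2 called none. Without the same mouse the median difference was 0.79 and 48 members had an unadjusted p under 0.05 (background 11.6% in that fit), with none past the adjusted threshold.

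The effect of genotype after succinate was asked next. In males the members showed no common direction, with 40 lower and 39 higher of the 79 tested (52.7% of all genes were lower) and a median of -0.02 (-0.03 over all genes). No member passed by edgeR (background 0%), none had an unadjusted p under 0.05 (background 2.72%), and DESeq2 called none. The smallest p was that of Ndufb4, a membrane arm subunit, with 22.2, 60.6 and 66.7 CPM in wild type and 27.7, 25.6 and 29.1 CPM in Ptk6-/- males (-0.82, SE 0.41, edgeR adjusted p = 1.00), and the groups overlapped. The largest of the higher values was Atp5e (1.62, SE 1.10), from 565 CPM in male Ptk6-/- succinate replicate 1 and 36.9 and 38.2 CPM in the other 2. Without that library the median of the members was -0.63. In these males heart muscle markers had a higher mean in Ptk6-/- mice in 11 of 12 genes, 5 of them not overlapping. They summed to 18.1, 55.3 and 84.2 CPM in wild type and 252, 51.9 and 48.5 CPM in Ptk6-/- males. Immune markers had a lower mean in 6 of 6 genes, 3 of them not overlapping, and enterocyte markers a higher mean in 8 of 10, all overlapping. The part of these in the members' difference was not tested. In females 76 of 80 members were lower in Ptk6-/- mice (52.9% of all genes were), with a median of -0.64 against -0.03. Without wild type replicate 2, the library with heart markers, the median was -0.34. It was -0.42 when replicate 1 and -1.04 when replicate 3 of the wild type was left out, and -0.41 when replicate 3 and -1.12 when replicate 2 of the knockout was. None passed by edgeR (background 0%) or DESeq2, and 2 had an unadjusted p under 0.05 (background 2.9% lower), Cox6a2 and Cox6b2, a form of subunit 6b known from testis. Cox6b2 had 10.5, 7.95 and 4.87 CPM against 2.97, 4.97 and 1.14 CPM (-1.36, SE 0.57, edgeR adjusted p = 0.931), with the ranges overlapping. Atp5pb (0.19), Atp5a1 (0.15), Atp5b (0.13) and Ndufs1 (0.04) were the only members not lower. All 13 subunits encoded by mitochondrial DNA were lower as well (median -1.65), with the library of 144939 CPM among the wild type mice, and without it their median was -0.27. Enterocyte markers summed to 36342, 27037 and 32327 CPM in wild type and 21485, 17757 and 18183 CPM in Ptk6-/- mice, and 7 of the 10 had a lower mean in the knockouts though each gene's ranges overlapped. Lung markers summed to 0.717, 0.0973 and 14.6 CPM in wild type and 6.08, 10.1 and 6.07 CPM in Ptk6-/- mice. Smooth muscle markers had a lower mean in the knockouts in 8 of 8 genes, with only Smtn not overlapping. They summed to 8026, 7797 and 4094 CPM in wild type and 3889, 5368 and 4738 CPM in Ptk6-/- mice. Heart muscle markers had a lower mean in 11 of 12 genes, with Tnnt2, Nppa and Csrp3 not overlapping. Nppa and Csrp3 had under 1 CPM in all of these females but wild type replicate 2. Cytosolic ribosomal protein genes summed to 55496.5, 39617 and 21096 CPM in wild type and 24893, 49888 and 18786 CPM in Ptk6-/- mice. The part of these in the members' difference was not tested.

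Succinate itself was compared with regular water in each genotype and sex. Markers of tuft cells, which respond to succinate, were summed over 5 genes. In females the sum was 11.2 to 21.5 CPM in the 6 controls and 38.9 to 140 CPM in the 6 treated mice, and in males 14.5 to 20.2 and 20.9 to 31.9 CPM. In Ptk6-/- males only Trpm5 of the 5 did not overlap, with 7.54, 8.96 and 14.9 CPM in controls and 25.8, 18.9 and 17.9 CPM after succinate, while Dclk1 had 5.45, 4.98 and 4.53 CPM in controls and 2.19, 3.13 and 5.99 CPM after succinate. In wild type males 77 of the 79 members tested were higher after succinate (52.5% of all genes were), with a median of 0.53 against 0.02. No member passed by edgeR (background 0%), none had an unadjusted p under 0.05 (background 4.07%), and DESeq2 called none. Ndufc1, a membrane arm subunit of complex I, had the smallest p, with 9.38, 12.3 and 16.3 CPM in controls and 7.63, 39.7 and 41.0 CPM after succinate (1.21, SE 0.56, edgeR adjusted p = 0.947). Treated replicate 1 was below every control and the other 2 were above them. Without that mouse the median was 0.86 and 59 members passed (background 14.6%), 23 of them past 2-fold (background 5.8%). Without treated replicate 2 the median was 0.26 and without treated replicate 3 it was 0.32, with no member called. The summed enterocyte markers were also lowest in treated replicate 1, at 19788 CPM, against 44449 and 36076 CPM in the other treated mice and 30883, 31675 and 32621 CPM in the controls. The 10 genes were divided, since Apoa1, Apoa4 and Fabp2 were lowest of the 3 treated mice in replicate 1, whereas Alpi, Sis, Lct, Vil1 and Slc5a1 were highest there. Smooth muscle markers summed to 1986, 3492 and 6659 CPM in treated replicates 1, 2 and 3 and to 1975 to 3122 CPM in controls. Cytosolic ribosomal protein genes summed to 17511, 48009 and 39769 CPM in the same treated mice and to 25840 to 29977 CPM in controls. Both sums were thus lowest of the treated mice in replicate 1 and above every control in the other 2, and the part of these genes was not tested. Cox7c, Cox5a, Ndufb2 and Ndufc2 followed with 0.95, 0.92, 0.73 and 0.75 in the fit of all 6 mice. Uqcrc2 (-0.06) and Ndufs1 (-0.04) were the only members lower.

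In Ptk6-/- males the members were higher after succinate in 77 of 81 cases (42.9% of all genes were), with a median of 1.15 (-0.10 over all genes). No member passed by edgeR at an adjusted p under 0.05 (background 0%), and DESeq2 called none. An unadjusted p under 0.05 was reached by 54 members, all higher (background 5.66%), and the groups did not overlap for 55 (background 11%). Atp5j, the coupling factor of the peripheral stalk, had 52.6, 72.2 and 73.9 CPM in controls and 187, 96.4 and 118 CPM after succinate (1.07, SE 0.33, edgeR adjusted p = 0.6). Ndufa5, in the matrix arm of complex I, had 17.5, 24.3 and 28.6 CPM against 173, 40.6 and 40.1 CPM (1.94, SE 0.64). Ndufa1 had 15.3, 22.5 and 22.2 CPM against 50.7, 27.8 and 32.9 CPM (0.94, SE 0.32). In each the treated mice lay above the controls, with replicate 1 the highest. Uqcrh (1.49) and Atp5e (3.38) completed the 5 smallest p. Without replicate 1, the library of 8080321 counts with 29.7% of them on Rn18s-rs5, the median of the members was 0.43. Cytosolic ribosomal protein genes summed to 14360 to 16412 CPM in controls and 69984, 20052 and 21248 CPM after succinate. Enterocyte markers summed to 21339, 31418 and 33012 CPM against 54129, 33329 and 36548 CPM, although 6 of the 10 had a lower mean after succinate, and smooth muscle markers to 1856, 2829 and 2816 CPM against 3074, 2859 and 2981 CPM. Heart muscle markers summed to 17.4, 30.0 and 39.4 CPM against 252, 51.9 and 48.5 CPM, and 6 of the 12 did not overlap. These 4 sums were higher in every treated mouse than in any control. Of the goblet cell markers Tff3 and Spink4 were higher and Muc2 lower after succinate without overlap. The part of these genes in the members' levels was not tested. With the length trend removed the median of the members was 0.70, and from FPKM it was 0.23 with all genes at -0.45. In FPKM the members summed to 3809 in treated replicate 1, the highest treated mouse by CPM, against 4265 and 5353 in the other treated mice. The part of that library in the FPKM fit was not tested. The 4 members not higher were Ndufs1 (-0.19), Uqcrc2 (-0.20), Atp5a1 (-0.11) and Cox8b. The controls here are those of the genotype comparison in males, so the values of the 2 comparisons are not independent.

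In wild type females 76 of 81 members were higher after succinate (52.3% of all genes were), with a median of 0.51 against 0.03. None passed by edgeR (background 0%) or DESeq2, and 3 had an unadjusted p under 0.05 (background 5.28% higher), all forms that are scarce in this tissue: Cox6a2, Cox8b and Ndufa4l2. Ndufa4l2, known as a gene induced by low oxygen, had 1.40, 2.29 and 1.99 CPM in controls and 5.57, 12.9 and 1.44 CPM after succinate (1.82, SE 0.71, edgeR adjusted p = 0.622). Treated replicates 1 and 2 were thus above all controls, and replicate 3 lay within their range. Without treated replicate 2, the library with heart markers, the median of the members was 0.23. Without treated replicate 3 it was 0.92, and 4 members passed, each past 2-fold (Atp5g1, Ndufv3, Cox5b-ps and Ndufa4l2, background 3.23%). Smooth muscle markers summed to 3775, 4354 and 3404 CPM in controls and 8026, 7797 and 4094 CPM after succinate, and the treated mice with the higher sums were those with the higher members. Enterocyte markers summed to 46224, 50568 and 52706 CPM in controls and 36342, 27037 and 32327 CPM after succinate, so that every treated mouse was below every control, and 9 of the 10 genes had a lower mean (all but Apoa4). All 13 subunits encoded by mitochondrial DNA were higher after succinate (median 1.51). Without treated replicate 2 their median was 0.24, with 11 higher and 2 lower. Cytosolic ribosomal protein genes summed to 29313, 51161 and 38134 CPM in controls and 55496.5, 39617 and 21096 CPM after succinate. The part of these in the members' levels was not tested.

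In Ptk6-/- females 67 of 80 members were higher after succinate (47.2% of all genes were), with a median of 0.43 against -0.04. None passed by edgeR (background 0.0879%), 5 had an unadjusted p under 0.05 (background 4.81% higher), and DESeq2 called 1, Uqcrfs1 (background 2.29%), which was past 2-fold (background 2.26%). The groups did not overlap for 8 (background 11.2% higher). Uqcrfs1 had 79.2, 74.5 and 96.5 CPM in controls and 172, 273 and 162 CPM after succinate (1.25, SE 0.31, edgeR adjusted p = 0.304). Ndufs1 had 74.3, 71.7 and 50.6 CPM against 116, 134 and 122 CPM (0.89, SE 0.26). In both the groups were apart, and Atp5pb (1.05) and Ndufv1 (0.84) were also among the 5. The control mice are those of the genotype comparison in females, in which Uqcrfs1, Ndufv1 and Atp5pb also had small p, so this recurrence is no separate evidence. Without control replicate 3 the median was 1.26, and without treated replicate 2 it was -0.11. All 13 subunits encoded by mitochondrial DNA were lower after succinate (median -1.81), with control replicate 3, at 101678 CPM, among the mice compared. Without it 12 of the 13 were lower (median -0.93), and the sums of the other 2 controls (33581 and 46310 CPM) overlapped those after succinate (24047, 15210 and 33995 CPM). Enterocyte markers summed to 22032, 28616 and 56144 CPM in controls and 21485, 17757 and 18183 CPM after succinate, so that every treated mouse was below every control, and 8 of the 10 had a lower mean. Lung markers were also lower in every treated mouse, at 6.08, 10.1 and 6.07 CPM against 10.4, 10.8 and 16.9 CPM. Smooth muscle markers had a higher mean after succinate in 7 of 8 genes, with sums of 2201, 2836 and 4854 CPM in controls and 3889, 5368 and 4738 CPM after succinate. The part of these in the members' levels was not tested.

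Whether the effect of succinate differed by genotype was tested as an interaction. In males no member passed by edgeR (background 0%) and 1 had an unadjusted p under 0.05 (background 3.8%), with a median of 0.61 against -0.08 over all genes. Without Ptk6-/- succinate replicate 1 the median was -0.06, and without wild type succinate replicate 1 it was 0.25. With the length trend removed it was 0.39, and from FPKM it was -0.48 with all genes at -0.71. In females none passed (background 0%) and 1 had an unadjusted p under 0.05 (background 6.46%), with a median of -0.09 against -0.05, and leaving out 1 mouse at a time gave medians of either sign, from -0.56 to 0.76. DESeq2 called none in either sex. The single member was Cox6a2 in both, a gene under 1 CPM in all libraries but 1.

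Some subunits come in forms typical of different tissues, and their levels set female wild type succinate replicate 2 apart. Cox6a2, the heart and skeletal muscle form of subunit 6a, had 283 CPM there (8739 counts) and at most 0.728 CPM in the other 23 libraries, of which 8 were at 0. Cox8b, the muscle form of subunit 8, had 27.8 CPM there (858 counts) and at most 0.477 CPM elsewhere, with 9 libraries at 0. These 2 thus stood out in a single mouse. Cox7a1, the muscle form of subunit 7a, was found in every library, at 7.73 to 73.0 CPM, and at 111 CPM in that mouse. Myh6, Tnnt2, Myl2 and Actc1, which encode sarcomere proteins of the heart, had 9018, 3213, 3241 and 3059 CPM in the same library. Their part in the other members' levels in that mouse, which was the highest of the 24 for 45 of the 81, was not tested.

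**Figure D5:**
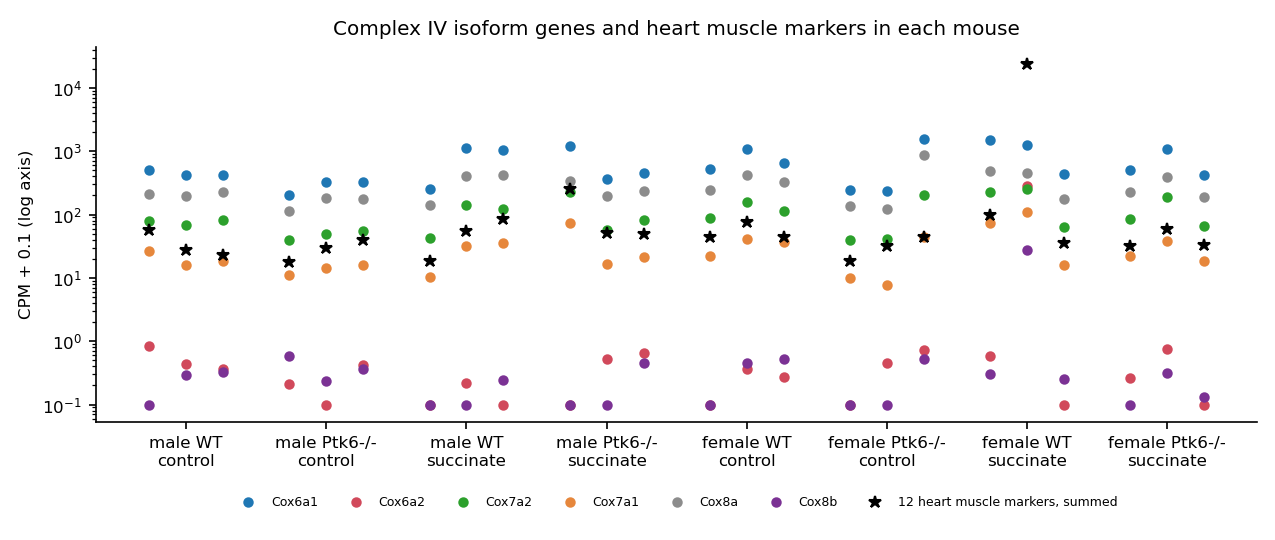
Levels (CPM + 0.1, log axis, vertical) of paired forms of complex IV subunits, and of the summed heart muscle markers, in 24 mice, 1 point per mouse. Cox6a2 and Cox8b reach 283 and 27.8 CPM in female wild type succinate replicate 2 and lie below 1 CPM in the other 23.

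The forms known from most tissues were abundant throughout. Cox6a1 ranged from 201 to 1532 CPM, Cox4i1 from 252 to 1924 CPM and Cox8a from 115 to 879 CPM. The rarer forms Cox4i2 and Cox6b2 stayed low in all 24 mice. Cox4i2 had at most 6.86 CPM, in male Ptk6-/- succinate replicate 1, where 25 counts stand behind it. Cox6b2 had at most 29.1 CPM, in the same library from 106 counts. The 3 genes Atp5g1, Atp5g2 and Atp5g3 encode the same mature c subunit of the ATP synthase rotor, and their mean levels over the 24 mice were 16.3 ± 13.4, 40.6 ± 19.3 and 99.0 ± 44.1 FPKM (SD, n = 24). Reads from the stretches these genes share may have been split among them.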

How the data were processed

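Poly(A) RNA of the distal jejunum was sequenced from stranded libraries, 1 for each of 24 mice. The authors aligned the reads, assembled transcripts with StringTie and deposited raw counts per gene and FPKM values. GRCm39 is the build in the submitters' processing notes. The counting program and its strand setting are not given in the sources used here. The members and lists were chosen with earlier results of these data known.

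Counts were scaled by TMM and tested for each comparison over its own libraries by edgeR 4.0.16 (quasi-likelihood, R 4.3.3), for genes with at least 10 counts in 3 of its libraries. Benjamini-Hochberg adjustment ran over all genes tested. A change needed an adjusted p under 0.05, and the study's threshold also a 2-fold change. The script was tested on simulated data. P-values measure the spread between these mice.

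Genes were named by rule: every member called, in each comparison up to 5 members with the smallest p in each direction, the complex I core subunits, paired isoforms, and the most and least abundant member of each complex. The values of 1 member are not reported here, though it stays in the counts and medians. Alternatives were DESeq2 1.42.0 and its size factors, no count filter, a replicate block, an offset that removes a length trend (lowess span 0.5, on lengths implied by the counts and FPKM), limma 3.58.1 on log2(FPKM + 1) with a mean FPKM of at least 0.5 or log2(FPKM + 0.1) without it, all 24 libraries in 1 fit, and leaving out each mouse in turn.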

Additional observations from a re-analysis of the deposited data

How the results depend on the processing

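In the control males the number of members at an adjusted p under 0.05 (17) became 60 with DESeq2, 1 with the length offset, and 0 with the replicate block, the length offset with the block, limma on log2(FPKM + 1) or log2(FPKM + 0.1), and all 24 libraries in 1 fit. It was 17 with DESeq2 size factors in edgeR and 15 with no count filter. The median log2 fold change of -0.61 became -0.25 with the length offset, -0.24 with the offset and block, and -0.17 with both FPKM settings. The FPKM fit placed all genes at 0.25 in this comparison, so that the members lay 0.42 below them. Male wild type control replicate 1 and male Ptk6-/- succinate replicate 1, with large shares of counts on Rn18s-rs5, had the lowest member FPKM of their groups. Their part in the FPKM fits was not tested. The numbers 1 to 3 did not pair the mice, with correlations of same-numbered mice from -0.356 to 0.234, so a call lost under the block is not read as a weaker effect. DESeq2 called 1 member past 2-fold and 3 at an adjusted p under 0.05 in the control females, and 1 and 1 in the Ptk6-/- females after succinate. In the succinate-treated males the median of -0.02 turned to 0.022 with DESeq2 size factors, 0.024 with DESeq2 and 0.12 with the length offset, and it was -0.66 from log2(FPKM + 1) with all genes at -0.43. In the Ptk6-/- males after succinate the median of 1.15 became 0.58 with the offset and block and 0.23 with both FPKM settings, where all genes lay at -0.45. Alternatives for the interaction medians were added after the data were seen. The difference between the sexes (-0.07) turned to 0.026 with the replicate block, 0.078 with the length offset, 0.13 with both, and 0.54 and 0.58 with the FPKM settings. The interaction with succinate turned from 0.61 to -0.48 and -0.52 with the FPKM settings in males and from -0.09 to 0.33 and 0.35 in females.

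Leaving out 1 mouse at a time gave 0 to 12 members at an adjusted p under 0.05 in the control males. In the control females it gave 0 to 67, 0 to 60 of them past 2-fold, and medians from -1.39 to -0.27. Medians ran from -0.63 to 0.24 in the succinate-treated males, from -1.12 to -0.34 in the succinate-treated females, from 0.26 to 0.86 in the wild type males and from 0.23 to 0.92 in the wild type females after succinate, from 0.43 to 1.43 in the Ptk6-/- males after succinate and from -0.11 to 1.26 in the Ptk6-/- females after succinate. They ran from -0.33 to 0.79 for the difference between the sexes, and for the interaction with succinate from -0.065 to 0.84 in males and from -0.56 to 0.76 in females. The wild type males after succinate gave 0 to 59 members, 0 to 23 past 2-fold, and the wild type females 0 to 4, all 4 past 2-fold. The cause of these shifts was not tested. Of the results recomputed, 489 were rated the same, 32 moved and 28 reversed. A median was the same if it kept its sign and shifted by less than the SD between mice of a group. It moved if it shifted further and reversed if its sign changed. A count was the same if equal or of similar size, so counts of 0 that stayed at 0 are among the 489. With 3 mice a group, 1 mouse could move the count of members that passed from 0 to most of the 81.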

Other observations

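The genes outside the members whose levels were most like those of Cox6a1 over the 24 libraries were Churc1 (Pearson correlation of log2 CPM 0.987), Msrb1 (0.983), Bbln (0.981), Banf1 (0.980) and Aurkaip1 (0.980). The closest members were Atp5md (0.990) and Atp5mpl (0.981). The values share libraries and scaling, and the correlations are a description.

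Of the 14 genes left out because they are not protein coding, the most abundant was Ndufa12-ps, with 389 to 4223 counts per library. Atp5pb-ps had 11 to 839 counts, Ndufb4c 32 to 622 and Atp5l2-ps 30 to 517. Reads shared by such a copy and its parent gene were not separated here.

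The spans of 35 members overlap another gene with counts, 28 of them on the opposite strand. In 9 members the opposite gene had at least 10% of the member's counts. The share was 168% for Ndufb1, which overlaps Cpsf2, 50.8% for Ndufa3, which overlaps Tfpt, and 36.7% for Ndufa2, which overlaps Tmco6.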
